A study of Bos taurus with 12 samples.

Results

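The genes of 6 major milk proteins of the cow were examined in mammary biopsies of early lactation Holstein cows: the caseins CSN1S1, CSN1S2 and CSN3, and the whey protein genes LALBA, PAEP and GLYCAM1. They were the members among 12639 genes that could be named on the array, and were found through the unversioned RefSeq accession that the scanner files attach to each probe, looked up in the bovine RefSeq table (ARS-UCD2.0). A total of 20 of the 43653 non-control probes belonged to them, namely 6 probes for CSN1S1 (NM_181029), 5 for CSN1S2 (NM_174528), 2 for CSN3 (NM_174294), 2 for LALBA (NM_174378), 3 for PAEP (NM_173929) and 2 for GLYCAM1 (NM_174828). The β-casein gene CSN2 was not matched to a probe by this rule and was not analysed here. Whether probes left without a name include it was not examined. The array's annotation refers to another bovine assembly than the table, and no positions are given. In the table, the casein genes CSN1S1, CSN1S2, CSN3 and CSN2 lie on chromosome 6, LALBA and GLYCAM1 on chromosome 5, and PAEP on chromosome 11.

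The 12 multiparous cows were at about 24 days in milk when the diets began, and each gave 1 biopsy and 1 one-color array. The 6 CONT cows kept free access to a lactation diet. For 4 days the 6 REST cows were fed a diluted ration in which barley straw made up 48% of dry matter. All 12 cows, CONT included, had 50 µg of lipopolysaccharide (LPS, a component of the bacterial outer membrane that provokes mammary inflammation) infused into a healthy rear gland 24 h before the biopsy. The comparison therefore asks whether nutrient restriction altered expression of milk protein genes in the LPS-challenged gland, and there was no unchallenged tissue to compare with.

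Caseins assemble with calcium phosphate into the micelles of milk. CSN1S1 and CSN1S2 encode the calcium-sensitive αS1- and αS2-caseins, and CSN3 encodes κ-casein, which coats the micelle and keeps it from aggregating. LALBA encodes α-lactalbumin, the partner of the galactosyltransferase B4GALT1 in lactose synthase, PAEP encodes β-lactoglobulin, the main whey protein of cow milk, and GLYCAM1 encodes lactophorin, a mucin-like glycoprotein of whey. Their transcription in the luminal secretory cell depends on prolactin, glucocorticoids and insulin, with STAT5 and ELF5 among the transcription factors.

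Levels are log2 intensities minus the 75th percentile of all probe intensities of the same array, so that a level of 0 is that percentile. This percentile was 577.1 to 1184 intensity units in CONT and 386.9 to 1082 in REST. The 12 arrays were on 3 slides, which held 3 CONT and 1 REST, 1 CONT and 3 REST, and 2 arrays of each group. Between 57.6 and 78.1% of the probes were well above background on an array, and all 20 member probes were so on each of the 12 arrays. The luminal epithelial markers were also present, with 10 of 10 well above background on every array.

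The milk protein genes were among the brightest signals of the gland. Ranked by mean intensity over the 12 cows, the 20 member probes stood between 4th and 104th of 43653, and 19 of them were within the first 50. On a single array the 20 probes held 3.03 to 9.30% of the summed intensity (median 5.42%). Feature Extraction combined scans at 2 gains, and all 240 member spots were read from the low-gain scan. A saturation mark was given to 2 of the 240 spots, 1 of CSN1S1 and 1 of PAEP. The deposited intensities nevertheless approached the saturation value of the array: the CSN3 probe lay at 67.7 to 102% of it, the LALBA probe at 19.1 to 96.4% and the GLYCAM1 probe at 16.5 to 64.8%. For each gene, the brightest probe without a saturation mark on any array was taken.

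**Figure D1:**
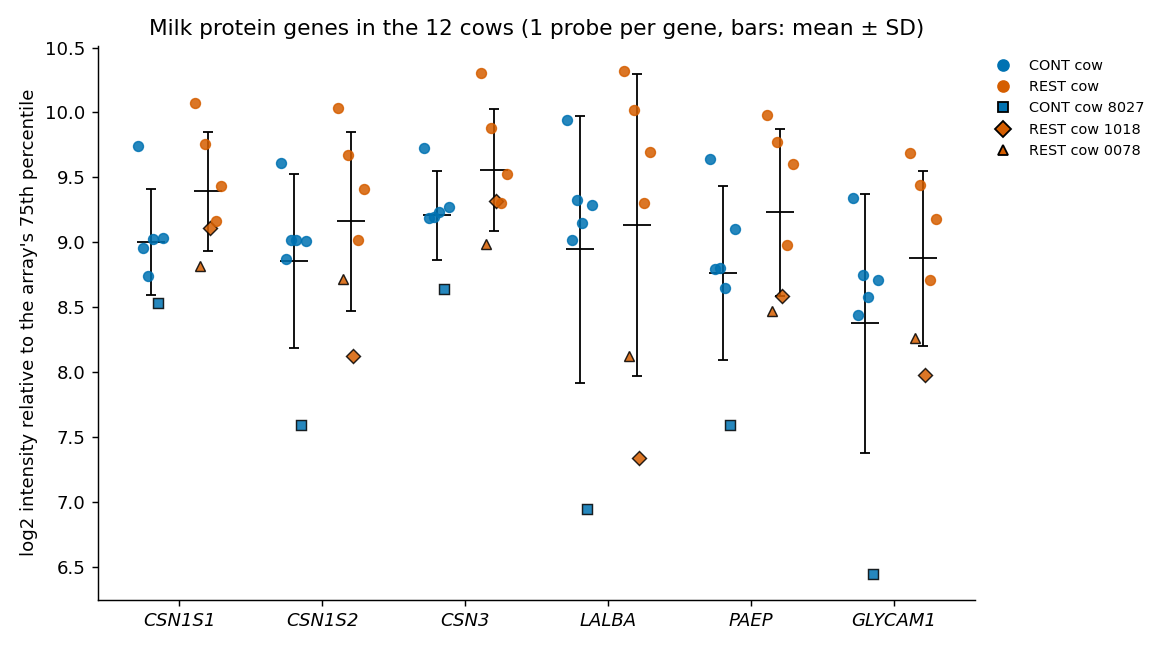
Log2 level relative to the array's 75th percentile (vertical axis) for 1 probe of each gene, with 1 point per cow and the mean ± SD of each group (n = 6 cows). The groups overlapped for all 6 genes, and CONT cow 8027 had the lowest CONT level of each gene.

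Mean levels of the 6 genes were higher in REST than in CONT by 0.19 to 0.50 on the log2 scale, but none of the differences passed the test, and their direction depended on how arrays were scaled. All 20 member probes had a higher mean in REST, against 46.1% of all probes. Of the 84 other probes as bright as the members, 68 were also higher in REST. With limma's moderated test, none of the 20 passed the adjusted threshold of 0.05 (0 of 43653 probes, 0%), whether by Westfall-Young, where their adjusted p was 1, or by Benjamini-Hochberg, where it was 1.00. None had an unadjusted p under 0.05 either (0 of 20 member probes, against 2.62% of all probes). The 20 probes are not 20 independent measurements, since probes of 1 gene share its transcript.

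Among the calcium-sensitive caseins, the CSN1S1 level ran from 8.53 to 9.74 in CONT, with a median of 8.99. In REST it ran from 8.82 to 10.07, with a median of 9.30. The groups overlapped over most of this range, and 2 REST cows were above every CONT cow. Mean levels were 9.004 ± 0.41 in CONT cows and 9.39 ± 0.46 in REST cows (SD, n = 6 for both), a log2 fold change (FC) of 0.39 (standard error 0.25, limma p = 0.144, exact permutation p = 0.154). The other 5 CSN1S1 probes gave log2 FC of 0.33 to 0.45. CSN1S2 had levels of 7.59 to 9.61 in CONT (median 9.01) and of 8.13 to 10.04 in REST (median 9.21). Here 1 cow of each group, CONT 8027 and REST 1018, lay well below the others. The log2 FC was 0.31 (standard error 0.37, limma p = 0.414, exact permutation p = 0.444), and 0.31 to 0.36 over its 5 probes.

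The κ-casein gene CSN3 had levels of 8.64 to 9.73 in CONT (median 9.21) and 8.99 to 10.30 in REST (median 9.42), with 5 of 6 REST cows above the CONT mean. Means were 9.21 ± 0.34 (SD, n = 6) and 9.55 ± 0.47 (SD, n = 6), and the log2 FC was 0.35 (standard error 0.24, limma p = 0.170, exact permutation p = 0.182). The second CSN3 probe gave 0.33.

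LALBA varied more between cows than between groups. In CONT its level was 6.94 to 9.94 (median 9.22), and in REST 7.34 to 10.32 (median 9.50). Within both groups the spread covered about the whole range of the other, with CONT averaging 8.94 ± 1.03 and REST averaging 9.13 ± 1.17 (SD, n = 6 for both). The log2 FC of 0.19 (standard error 0.58) was smaller than its error (limma p = 0.749, exact permutation p = 0.777). The second LALBA probe gave 0.17 with a standard error of 0.86.

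PAEP levels ranged from 7.59 to 9.64 in CONT (median 8.80) and from 8.47 to 9.98 in REST (median 9.29). The log2 FC was 0.47 (standard error 0.36, limma p = 0.213, exact permutation p = 0.268), with 0.38 to 0.47 over its 3 probes, and 4 of 6 REST cows were above the CONT mean. GLYCAM1 had the largest mean difference of the 6 genes, from 6.44 to 9.34 in CONT (median 8.64) and from 7.98 to 9.69 in REST (median 8.94). Its log2 FC was 0.50 (standard error 0.45, limma p = 0.289, exact permutation p = 0.374), and the second probe gave 0.34. Of this difference, much rested on a single cow: without CONT cow 8027 the GLYCAM1 log2 FC was 0.11, the CSN1S2 log2 FC was 0.06, and that of LALBA changed sign to -0.21. PAEP then had 0.23, and CSN1S1 and CSN3 had 0.29 and 0.23. Without REST cow 0049, LALBA had -0.05, CSN1S2 0.13 and CSN3 0.20. The number of cows limits what could be detected, and a p that misses the threshold does not show that the genes were expressed alike.

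**Figure D2:**
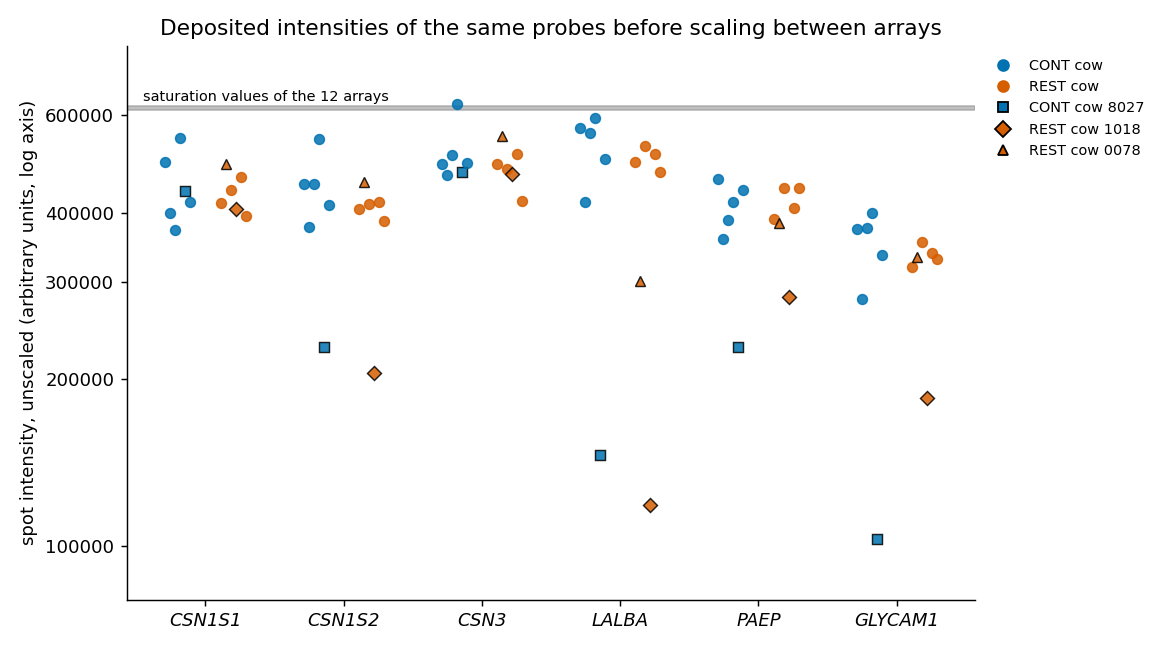
Deposited spot intensity (arbitrary units, log axis) of the same 6 probes in each cow, before any scaling between arrays, with the saturation values of the 12 arrays as a grey band. CSN3 intensities were 420339 to 628180, while LALBA fell to 145706 in CONT cow 8027 and 118784 in REST cow 1018.

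Before scaling, CSN1S1 and CSN3 spanned narrower ranges over the 12 cows than CSN1S2, LALBA and GLYCAM1. The highest intensity was 1.40 and 1.49 times the lowest for the 2 CSN3 probes and 1.44 to 1.89 times for the 6 CSN1S1 probes. For PAEP it was 2.01 times for the probe taken, 1.57 times for another, and 1.18 times for the probe with a saturation mark on 1 array. LALBA spanned 4.995- and 9.70-fold by its 2 probes, GLYCAM1 3.88- and 9.29-fold, and CSN1S2 2.37- to 3.94-fold by its 5 probes. Over the 12 cows, the SD of unscaled log2 intensity was 0.09 to 1.20 for the member probes (median 0.30), compared with a median of 0.70 over all probes. After the 75th percentile shift the member SD rose to a median of 0.64, whereas that of all probes fell to 0.52.

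The direction of the difference between REST and CONT changed with the scaling. The log2 of the 75th percentile averaged 9.75 ± 0.36 over CONT arrays and 9.33 ± 0.53 over REST arrays (SD, n = 6 for both), lower by 0.41 (exact permutation p = 0.139). Without scaling, 16 of the 20 member probes were lower in REST and 4 were higher (8.09% of all probes were higher), with log2 FC of -0.23 to 0.09. CSN1S1 then had -0.02, CSN1S2 -0.10, CSN3 -0.06, LALBA -0.22, PAEP 0.05 and GLYCAM1 0.09, with exact permutation p of 0.411 to 0.931 over the 20 probes. The median over all probes moved to -0.43, so that the member median of -0.06 stood 0.37 above it. A constant shift of each array keeps this distance by construction (0.35 against -0.02 with the percentile shift), and it was 0.09 with quantile normalization and 0.09 with slide as a block. With single cows left out after the percentile shift, the distance ranged from 0.22 (without CONT cow 8027) to 0.55 (without CONT cow 0015). A shift to the spike-in RNA of the labeling kit instead put all 20 member probes lower in REST, with a member median of -0.29 and a median of -0.68 over all probes. What differs between the scalings is which quantity is held equal between the groups, and whether the milk protein RNA of the tissue was higher or lower in REST cannot be read from these arrays.

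**Figure D3:**
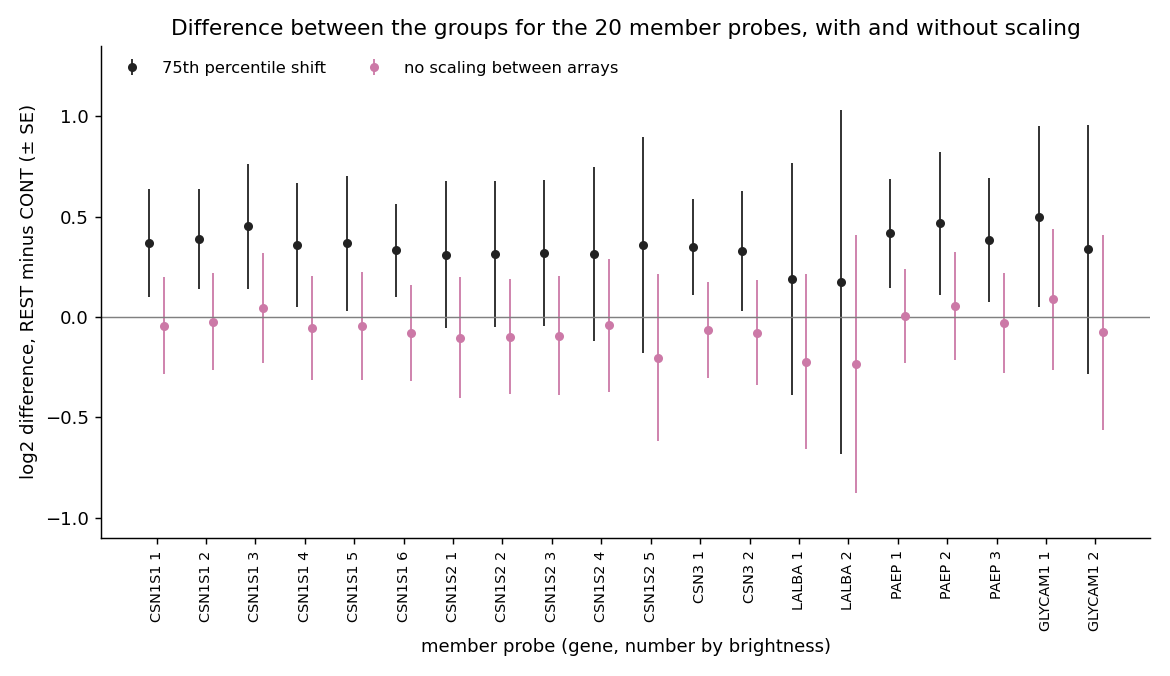
Log2 difference REST minus CONT (vertical axis, ± standard error) for each of the 20 member probes, numbered by brightness within the gene, after the 75th percentile shift and without scaling between arrays. All 20 differences were above 0 with the shift, and 16 of 20 were below 0 without it.

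The level after the shift followed the percentile itself. Across the 12 arrays, Pearson's r between a member's shifted level and the log2 of the array's 75th percentile was -0.99 to -0.67 over the 20 probes (median -0.89). For unscaled intensities r was -0.49 to 0.54. The shifted level contains the percentile with a minus sign, so these coefficients are descriptions only. REST cow 0049 had the lowest percentile and the highest shifted level of all 6 genes, and CONT cow 8027 had the highest percentile and the lowest shifted level of each gene among CONT cows.

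**Figure D4:**
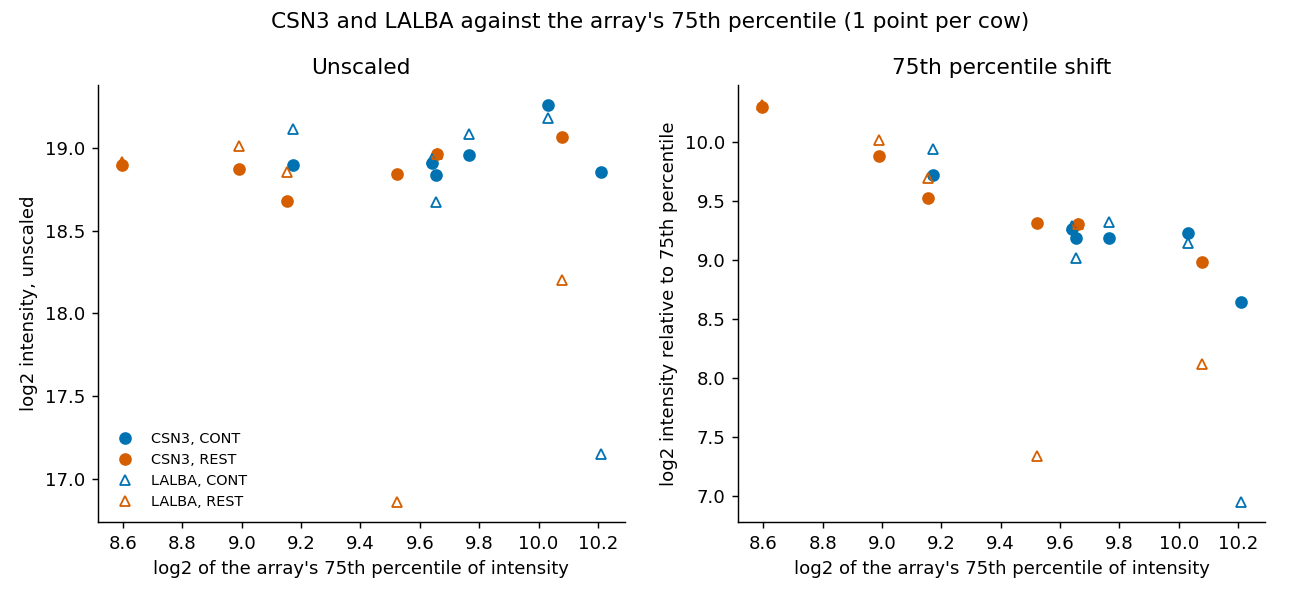
CSN3 and LALBA in each cow (vertical axes, log2 intensity unscaled at left and relative to the 75th percentile at right) against the log2 of the array's 75th percentile. CSN3 spanned 1.49-fold before scaling, and LALBA was low in CONT cow 8027 and REST cows 1018 and 0078 on both scales.

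A difference between members within the same array does not depend on a constant shift of that array, and here the genes separated by cow rather than by diet. The difference between LALBA and CSN3 was -1.70 in CONT cow 8027, -1.98 in REST cow 1018 and -0.87 in REST cow 0078, and lay between -0.17 and 0.22 in the other 9 cows. For GLYCAM1 and CSN3 it was -2.20 in cow 8027 and -1.34 in cow 1018, against -0.74 to -0.35 in the remaining 10 cows. CSN1S2 showed the same pattern, with -1.05 and -1.19 in these cows and -0.32 to -0.12 in the other 10. PAEP reached -1.05 and -0.74 in them, against -0.59 to 0.08 elsewhere. For CSN1S1 the result depended on the probe. The probe taken gave -0.11 and -0.21 in these cows, inside the range of -0.45 to 0.01 of the other 10, whereas 2 of the 6 probes put these cows lowest. They gave -0.89 and -1.02 (others -0.61 to -0.24) and -1.06 and -1.25 (others -0.79 to -0.20). The dimmest of the 6 probes gave -0.61 and -0.72, inside the range of -0.80 to -0.57 of the other 10. Group means of these 5 differences were within 0.16 of each other. The probes taken for CSN3 and CSN1S1 did not fall below 67.7 and 60.7% of the array's saturation value in any cow, while the second CSN3 probe fell to 47.8% (outlier spots left out) and the dimmest values of the other CSN1S1 probes were 31.8 to 56.9%. The part of signal near saturation in these differences between probes was not tested.

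Probes of the same gene showed the same cows where the gene varied. After removal of the group means, unscaled intensities of both LALBA probes had r = 0.99 over the cows, those of GLYCAM1 also 0.99, and those of the CSN1S2 probes 0.93 to 0.98. For the genes with narrower ranges r was mixed, with 0.24 to 0.97 between the CSN1S1 probes, 0.32 for the CSN3 probes and -0.04 and -0.09 between the brightest PAEP probe and the other PAEP probes, which had 0.93 with each other. Between genes, unscaled r was 0.92 for LALBA and CSN1S2, 0.91 for LALBA and GLYCAM1, 0.95 for PAEP and GLYCAM1, and 0.22 for LALBA and CSN3. Without cows 8027 and 1018, chosen after their values were seen, these 4 coefficients were 0.16, 0.56, 0.57 and -0.05 over 10 cows. They share the arrays and are descriptions only.

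The same cows were low in many other genes of milk secretion. CONT cow 8027 had the lowest CONT level for 6 of the 6 members and for 12 of 18 other milk protein genes (66.7%), compared with 34.4% of 12551 named genes. In REST, cow 1018 was lowest for 3 members (CSN1S2, LALBA and GLYCAM1) and for 13 of 18 other milk protein genes (72.2%), compared with 20.9% of named genes. The remaining 3 members were lowest in REST cow 0078. For the list of lactose synthase and casein maturation, cow 8027 was lowest for 12 of 18 genes and cow 1018 for 11 of 18. For the list of hormone signalling and transcription factors this was 7 of 16 (43.8%) for cow 8027 and 3 of 16 (18.8%) for cow 1018, and PRLR at 3.07 in cow 1018 was the highest of the 12 cows. ELF5, an epithelial transcription factor required for secretory differentiation, was at 4.95 in cow 8027 and 5.19 in cow 1018, with a median of 6.54 over the 12 cows. B4GALT1 was at 5.28 and 5.91 in them, with a median of 6.45.

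The luminal keratins KRT8 and KRT18 were not low in these cows. KRT8 was at 5.17 in cow 8027 and 5.32 in cow 1018 (median of the 12 cows 4.68), and KRT18 at 4.50 and 3.98 (median 2.80), while KRT19 was at 5.70 and 5.85 (median 6.36). Over the list of 10 epithelial markers, cow 8027 was lowest in CONT for 1 gene and cow 1018 lowest in REST for 2. Cow 8027 also stood apart outside the epithelium, with a mean log2 level of -1.07 over 7 endothelial markers, against 0.69 to 0.93 in the other CONT cows. It was lowest in CONT for 3 of 6 adipocyte, 3 of 3 red blood cell, 3 of 7 myoepithelial, 3 of 15 leukocyte and 0 of 7 fibroblast markers. This was so for 34.4% of all named genes. Cow 1018 had a mean log2 level of 1.12 over the endothelial markers. Both arrays were on the slide with 2 cows of each group, where CONT cow 0015 and REST cow 1058 had LALBA levels of 9.94 and 9.30. In bulk tissue, fewer secretory cells and less milk protein RNA in each cell cannot be told apart.

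Expressed relative to the mean of KRT8, KRT18 and KRT19 of the same array, the members had higher means in REST. None of the differences exceeded the spread between cows. The difference was 0.41 ± 0.55 (standard error) for CSN1S1, 0.33 ± 0.69 for CSN1S2 and 0.37 ± 0.55 for CSN3. It was 0.21 ± 0.91 for LALBA, 0.49 ± 0.66 for PAEP and 0.52 ± 0.77 for GLYCAM1. Exact permutation p-values over the cows were 0.474 to 0.814. REST cows above the CONT mean numbered 2 (CSN3) to 4 of 6. Without REST cow 0049 the differences were 0.09 for CSN1S1, -0.03 for CSN1S2, 0.03 for CSN3, -0.21 for LALBA, 0.15 for PAEP and 0.17 for GLYCAM1. Over the cows the keratins themselves ranged from 2.40 to 5.71 for KRT8, from 0.96 to 4.50 for KRT18 and from 5.37 to 7.34 for KRT19. Their part in the spread was not tested. With KRT19 alone as the reference, 5 of the 6 differences changed sign.

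**Figure D5:**
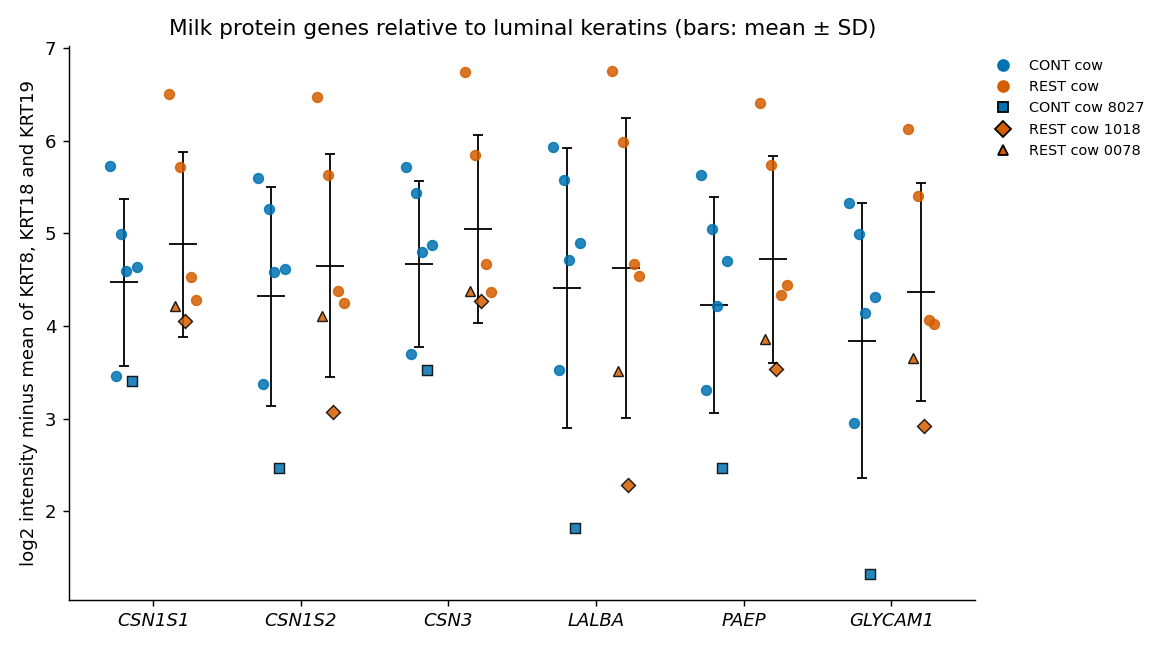
Log2 intensity of each member minus the mean of the luminal keratins KRT8, KRT18 and KRT19 of the same array (vertical axis), with 1 point per cow and the mean ± SD of each group (n = 6 cows). Both groups spread over several log2 units and overlapped for all 6 genes.

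None of the other genes of milk protein secretion passed the adjusted test either. Of 18 matched milk protein genes beside the members, 13 had a higher and 5 a lower mean in REST, none had an unadjusted p under 0.05, and the median log2 FC was 0.23, compared with -0.03 over the 12639 named genes (43.5% higher). With slide as a block the list's median was 0.04, and that of all probes 0.05. Without CONT cow 8027, 6 of the 18 were higher, with a median of -0.14. LTF, the iron-binding lactoferrin, had a log2 FC of -0.20 (standard error 0.38, exact permutation p = 0.716). BTN1A1, a membrane protein of the milk fat globule, had 0.35 (standard error 0.78), and LPO, the milk peroxidase, 0.17 (standard error 0.75). With slide as a block all 3 changed sign, LTF to 0.0095, BTN1A1 to -0.07 and LPO to -0.06. The butyrophilin gene BTN1A1 was at 4.25 in cow 8027 and 4.19 in cow 1018, against a median of 7.26.

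Among 16 matched genes of hormone signalling and transcription factors, 8 were higher and 8 lower in REST, with a median of -0.03 and none under an unadjusted p of 0.05. The prolactin receptor gene PRLR had a log2 FC of 0.07 (standard error 0.33). STAT5A, which carries the prolactin signal to the nucleus, had 0.00 (standard error 0.19) and its paralog STAT5B -0.26 (standard error 0.36). ELF5 had 0.10 (standard error 0.43). In the list of lactose synthase and casein maturation, 9 of 18 were higher and 9 lower, with a median of -0.03 and none under 0.05, and B4GALT1 had 0.35 (standard error 0.31, exact permutation p = 0.303). With slide as a block ELF5 had -0.09 and B4GALT1 0.15. Without CONT cow 8027, 5 of the 16 and 5 of the 18 were higher (medians -0.05 and -0.12). Of 10 genes of the involution list, 4 were higher and 6 lower in REST, with a median of -0.14, or 0.13 with slide as a block. An unadjusted p under 0.05 was found for 1 of the 10, compared with 2.64% of the named genes. This was IGFBP5, a binding protein of insulin-like growth factors that accumulates in the involuting gland. IGFBP5 had a log2 FC of -1.06 (standard error 0.38, limma p = 0.015, exact permutation p = 0.0087). Its level averaged -0.01 ± 0.84 in CONT cows and -1.08 ± 0.53 in REST cows (SD, n = 6 for both).

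Markers of other cell types are given beside these values, and their part in the member values was not tested. Of 7 fibroblast markers, 6 had a lower mean in REST (median log2 FC -0.60), and 3 of them had an unadjusted limma p under 0.05: LUM with a log2 FC of -0.84, COL1A1 with -0.72 and COL1A2 with -0.65 (exact permutation p = 0.0087, 0.065 and 0.032). Their summed level, on the linear scale relative to the 75th percentile, was 50.2 to 68.7 in CONT and 23.6 to 70.2 in REST. With slide as a block the fibroblast median was -0.39, with LUM at -0.83, COL1A1 at -0.39 and COL1A2 at -0.45, and without REST cow 0049 it was -0.43. All 7 endothelial markers had a higher mean in REST (median 0.37, summed level 5.70 to 21.4 in CONT and 12.9 to 27.1 in REST), VWF with 0.79 (exact permutation p = 0.0043). Without CONT cow 8027, 6 of the 7 were higher, with a median of 0.06. Of 15 leukocyte markers 8 were higher (median 0.07, summed level 32.6 to 106 and 21.6 to 131), and 1 had an unadjusted p under 0.05, MS4A1 with 0.72 (exact permutation p = 0.028), whose probe was well above background on 4 of the 12 arrays. With single cows left out, 5 to 13 of the 15 were higher, 5 without CONT cow 1076 or REST cow 1058 and 13 without REST cow 0049, with medians of -0.16 to 0.21. Of 10 epithelial markers 6 were higher, or 3 (without REST cow 7043) to 8 with single cows left out (median 0.03, summed level 86.4 to 207 and 121 to 202), and of 7 myoepithelial markers 1 (median -0.11, summed level 93.3 to 259 and 88.3 to 149), or 6 without CONT cow 0055 (median 0.12). Adipocyte markers were higher for 5 of 6 (median 0.31, summed level 15.4 to 175 and 112 to 252), of which FABP4 and CFD, 2 of the 6, were well above background on all arrays. Of 3 red blood cell markers 1 was higher (median -0.13, summed level 4.23 to 20.4 and 7.97 to 26.1). The higher marker was HBA, with a log2 FC of 0.13. HBB was well above background on only 1 of the 12 arrays, and ALAS2 was at background on all 12 arrays. After adjustment over all probes none of these genes passed 0.05.

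Within slides the differences did not keep 1 direction. For CSN3 the log2 FC was -0.21 on the slide with 3 CONT and 1 REST, 0.64 on that with 1 CONT and 3 REST, and 0.13 on that with 2 of each. LALBA had -1.04, 0.72 and -0.12 on the same slides, and GLYCAM1 -0.33, 0.72 and 0.45. CSN1S1 had -0.09, 0.72 and 0.00, CSN1S2 -0.25, 0.69 and -0.03, and PAEP -0.28, 0.68 and 0.16. The middle slide, where all 6 were higher in REST, compares 3 cows with CONT cow 9040 alone, and without scaling its differences were -0.09 (CSN3) to -0.003 (GLYCAM1). With slide as a block over all cows, the log2 FC was 0.19 for CSN1S1, 0.12 for CSN1S2, 0.18 for CSN3, -0.15 for LALBA, 0.19 for PAEP and 0.30 for GLYCAM1.

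The genes whose shifted level was most like a member's over the 12 cows, after removal of the group means and among 8995 genes well above background on all arrays and saturated on none, reached r of 0.95 to 0.99. They included SLC17A5 (0.95) and RPLP1 (0.95) for CSN1S1, and were TRMT61A (0.98), RPLP1 (0.97) and RUSC2 (0.96) for CSN3. CSN1S2 had PLPPR2 (0.99), TMEM225B (0.99) and ACAD11 (0.98), and LALBA had PLPPR2 (0.98), ACAD11 (0.98) and RETREG1 (0.98). PAEP had CYTH2 (0.98), BAZ1B (0.97) and CAMK1G (0.97), and GLYCAM1 had WIPI2 (0.98), HBA (0.98) and ADGRA1 (0.98). All points share the array's percentile. On unscaled intensities the most alike genes were others in part: RETREG1 (0.96), PLPPR2 (0.96) and BTN1A1 (0.96) for LALBA, WIPI2 (0.97), PARD6G (0.97) and LPO (0.97) for GLYCAM1, and MIA3 (0.95), CAPS (0.94) and CCL14 (0.91) for CSN3.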

How the data were processed

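Cy3-labeled RNA of each biopsy was hybridized to an Agilent bovine array, and the authors processed the scans with Feature Extraction (version 11.0.1.1 per the file headers). The deposited values are background-corrected spot intensities, not normalized between arrays, and the deposited matrix holds the same intensities. Control spots were left out, spots with an outlier mark were set to missing (5 of the 240 member values), and each log2 intensity was taken relative to the 75th percentile of its array, with replicate spots of a probe averaged. Of 43653 probes, 26832 were named through RefSeq accessions.

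REST was compared with CONT over all probes with limma (version 3.58.1, R 4.3.3; lmFit and eBayes). P-values are two-sided, adjusted by Westfall-Young step-down over 100 splits of the cows or by Benjamini-Hochberg, with a threshold of 0.05. Exact permutation tests enumerated all splits and cannot give less than 0.00216. Precision is limited by the number of arrays. The fit was tested on simulated data. The members and lists were chosen with earlier results of these data known. Named genes were the members, 9 matched regulators, keratins and partners, list genes with an unadjusted p under 0.05 (at most 4 per list) and the 3 genes most like each member, of which 1 is not reported here. LPO, BTN1A1 and the cows singled out were picked with their values in view. A planned motif search in promoters was not run, because no promoter sequence was at hand.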

Additional observations from a re-analysis of the deposited data

Results flagged for a closer look

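CONT cow 8027 lay far below the other CONT cows for several genes. Its CSN1S2 level was 7.59, against 8.87 to 9.61 in the other 5 CONT cows. Its LALBA level was 6.94, against 9.02 to 9.94, and its GLYCAM1 level was 6.44, against 8.44 to 9.34. In each case the gap to the next cow exceeded 0.625 of the group's range, which is Dixon's 95% critical value for 6 samples. A total of 24 groups of values were tested in this way, of which 1.2 would be past the value by chance, and the 3 that were past it all come from this cow.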

How the results depend on the processing

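No probe passed the Westfall-Young or Benjamini-Hochberg threshold in any of the settings run, and unadjusted p-values under 0.05 were found for 377 probes (normexp) to 4191 probes (spike-in shift, chosen after seeing the data). The number of member probes with a higher mean in REST was 20 in the reported fit, 15 without CONT cow 8027, 17 with quantile normalization, 18 with the slide block, 18 without REST cow 0049, 4 without scaling between arrays and 0 with the spike-in shift, the last 2 chosen after seeing the data. Log2 FC turned negative without scaling for CSN1S1 (-0.023), CSN1S2 (-0.10), CSN3 (-0.065) and LALBA (-0.22), and with the spike-in shift for CSN1S1 (-0.27), CSN1S2 (-0.35), CSN3 (-0.31), LALBA (-0.47), PAEP (-0.19) and GLYCAM1 (-0.15). Quantile normalization gave -0.013 for CSN3 and -0.081 for LALBA and lowered CSN1S1 to 0.03, CSN1S2 to 0.05, PAEP to 0.25 and GLYCAM1 to 0.26, and the slide block -0.15 for LALBA. Each cow left out in turn gave ranges of 0.25 to 0.54 for CSN1S1 (0.54 without CONT cow 0015, the 1 setting in which a member gene had an unadjusted p under 0.05, not passed after adjustment), 0.06 to 0.52 for CSN1S2, 0.20 to 0.46 for CSN3, -0.21 to 0.55 for LALBA, 0.23 to 0.64 for PAEP and 0.11 to 0.69 for GLYCAM1. Relative to KRT19 alone, CSN1S1 (-0.089), CSN1S2 (-0.17), CSN3 (-0.13), LALBA (-0.29) and PAEP (-0.011) turned negative, and with single cows left out the difference from the keratins ranged from -0.30 to 0.68 for LALBA and from -0.037 to 0.65 for CSN1S2, while it stayed positive for the other 4 genes. Without cows 8027 and 1018 together, chosen after seeing the data, all 6 log2 FC stayed positive. The cause of these changes was not tested. The median shift, reference gene shift, normexp, the deposited matrix, kept outlier spots, an eBayes trend, a filter on dim probes and the probe rule changed no direction. No paired analysis was possible because the groups share no replicate numbers. Signals near saturation could limit how well higher levels of the brighter member probes were seen, which was not tested.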

Other observations

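The 84 other probes as bright as the members (within the first 104 by mean intensity) were less variable after the 75th percentile shift, with a median SD over the cows of 0.33, compared with 0.64 for the 20 member probes. Unscaled, both had a median SD of 0.30. Of these 84 probes, 68 were higher in REST with the shift (median log2 FC 0.16) and 3 without scaling (median -0.25), where the member medians were 0.35 and -0.06.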
